A study of Mus musculus with 33 samples.

Results

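The lamina-associated domains (LADs) of mouse embryonic stem (mES) cells are the 1932 regions on chromosomes 1 to 19 that the authors called LAD in these cells, out of 26939 domains in the 9 lists deposited for the series. Every row of the mES LAD list on those chromosomes was taken, and none was filtered out. The study profiled H3K9me2 and LaminB by CUT&RUN, an assay in which an antibody directs a nuclease to cut and release the chromatin around its target, with IgG as the control antibody. The mES cells are a C57BL/6 line started on inactivated mouse embryonic fibroblasts and moved to medium with LIF and the 2 inhibitors PD0325901 and CHIR99021 (LIF + 2i). They gave 3 libraries per antibody from separate culture vessels, so the domains describe 1 cell line in 1 medium. Heart and forebrain, used below to follow the mES LADs, were whole hearts and right forebrain lobes of wild-type C57BL/6 embryos at E11.5, pooled by litter, and are mixtures of cell types. Beside LADs, the authors listed KODs (2679 in mES cells), a name the labels do not spell out, and open domains (3214 in mES cells).

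The nuclear lamina is a mesh of lamin proteins under the inner nuclear membrane, and LADs are the stretches of chromosome that lie against it. They are known as gene-poor chromatin of low transcription that replicates late, and they often carry H3K9me2, a histone mark laid down mainly by the methyltransferases G9a and GLP. In embryonic stem cells many genes for specialised functions of neurons, heart or liver are silent, and part of them are known to lie at the lamina until their lineage forms.

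A LAD in the list is a chromosome with a start and an end on a 10 kb grid, and no score comes with it, so values just inside and outside the authors' threshold cannot be given. It pools the replicates, so no spread between cultures can be computed and the depth behind a domain is unknown. Spread is therefore given over the 19 chromosomes, which are pieces of 1 map, or as an exact (Clopper-Pearson) 95% interval over domains, which covers counting error only. The regions were chosen by the authors' calls on the measured H3K9me2 and LaminB signal, so their number, length, spacing and flanks are a description, with no test. Coordinates are on mm10, counted from 1.

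The sequence of gene promoters was not used to call the domains, and it is printed here because promoters of LAD genes differed from those of open genes in their content of CpG, the dinucleotide at which mammalian DNA is methylated. Each sequence below is the 300-base RefSeq promoter on GRCm38.p6, the assembly mm10 is made from, with 250 bases before the transcription start and 50 from it, written 5′ to 3′ in lower case with every CG in capitals. The first 3 have the highest CpG ratio (observed over expected CG, from the C and G content) among the 25 genes with a sequence in this table out of 33 that lie in the 10 longest LADs or are among the 10 longest genes inside a LAD. Cntn5 encodes a contactin, an adhesion molecule of neurons, Gpc5 a glypican (a cell-surface heparan sulfate proteoglycan) and Cdh8 a type II cadherin.
Cntn5, chr9:10904726-10905025, minus strand: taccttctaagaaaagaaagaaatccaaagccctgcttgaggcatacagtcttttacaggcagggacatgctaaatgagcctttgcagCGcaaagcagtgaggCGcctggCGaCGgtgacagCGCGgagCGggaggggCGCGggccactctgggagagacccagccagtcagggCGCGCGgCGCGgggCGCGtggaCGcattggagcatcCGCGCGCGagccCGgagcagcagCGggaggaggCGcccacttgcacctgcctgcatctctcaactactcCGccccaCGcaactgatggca
Gpc5, chr14:115091965-115092264, plus strand: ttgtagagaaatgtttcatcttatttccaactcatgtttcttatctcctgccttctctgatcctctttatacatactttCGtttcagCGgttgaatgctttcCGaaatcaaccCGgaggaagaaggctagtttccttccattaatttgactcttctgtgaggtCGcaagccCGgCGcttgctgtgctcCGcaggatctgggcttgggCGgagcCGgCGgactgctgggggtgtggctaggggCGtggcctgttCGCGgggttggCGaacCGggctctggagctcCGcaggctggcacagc
Cdh8, chr8:99416422-99416721, minus strand: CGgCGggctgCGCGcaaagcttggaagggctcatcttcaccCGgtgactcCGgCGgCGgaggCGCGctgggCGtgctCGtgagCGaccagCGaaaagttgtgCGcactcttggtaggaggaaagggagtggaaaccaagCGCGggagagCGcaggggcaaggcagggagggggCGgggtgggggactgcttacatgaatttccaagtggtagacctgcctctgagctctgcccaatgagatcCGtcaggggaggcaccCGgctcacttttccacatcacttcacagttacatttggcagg
The next 3 come from the same genes and hold no CG at all. Cntn3 encodes another contactin and Rgs13 a regulator of G-protein signalling.
Cntn3, chr6:102464618-102464917, minus strand: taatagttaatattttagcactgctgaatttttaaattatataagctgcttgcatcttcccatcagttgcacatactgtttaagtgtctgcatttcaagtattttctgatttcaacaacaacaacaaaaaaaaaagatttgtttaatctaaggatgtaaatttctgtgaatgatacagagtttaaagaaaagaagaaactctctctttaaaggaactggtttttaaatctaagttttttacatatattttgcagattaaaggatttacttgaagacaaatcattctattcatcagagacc
Rgs13, chr1:144177323-144177622, minus strand: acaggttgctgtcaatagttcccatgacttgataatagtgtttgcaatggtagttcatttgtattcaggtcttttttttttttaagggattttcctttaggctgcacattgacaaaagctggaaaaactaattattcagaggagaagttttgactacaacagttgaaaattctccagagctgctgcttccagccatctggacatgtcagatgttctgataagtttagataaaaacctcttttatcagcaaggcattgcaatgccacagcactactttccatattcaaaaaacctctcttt
Spertl, chr14:95881004-95881303, plus strand: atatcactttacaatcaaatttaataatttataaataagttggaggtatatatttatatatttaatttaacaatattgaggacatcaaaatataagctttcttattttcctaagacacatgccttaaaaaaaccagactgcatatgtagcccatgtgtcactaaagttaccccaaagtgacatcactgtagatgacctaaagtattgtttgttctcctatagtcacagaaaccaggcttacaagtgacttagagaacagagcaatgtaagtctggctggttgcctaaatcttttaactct
For comparison, the last 2 belong to genes in open domains of mES cells. Tet2 encodes an enzyme that oxidises 5-methylcytosine, and Klf2 a transcription factor of the naive pluripotent state. They were taken as the 2 with the highest CpG ratio in the list of pluripotency genes used below. They are therefore not typical open promoters, whose median ratio was 0.725.
Tet2, chr3:133544341-133544640, minus strand: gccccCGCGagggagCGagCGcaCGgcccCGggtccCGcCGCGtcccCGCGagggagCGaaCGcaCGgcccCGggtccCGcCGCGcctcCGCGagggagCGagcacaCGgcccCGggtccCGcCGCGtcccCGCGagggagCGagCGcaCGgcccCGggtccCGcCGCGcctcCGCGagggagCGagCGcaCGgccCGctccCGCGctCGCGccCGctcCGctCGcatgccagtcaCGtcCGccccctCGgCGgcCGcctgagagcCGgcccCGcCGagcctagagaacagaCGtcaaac
Klf2, chr8:72318812-72319111, plus strand: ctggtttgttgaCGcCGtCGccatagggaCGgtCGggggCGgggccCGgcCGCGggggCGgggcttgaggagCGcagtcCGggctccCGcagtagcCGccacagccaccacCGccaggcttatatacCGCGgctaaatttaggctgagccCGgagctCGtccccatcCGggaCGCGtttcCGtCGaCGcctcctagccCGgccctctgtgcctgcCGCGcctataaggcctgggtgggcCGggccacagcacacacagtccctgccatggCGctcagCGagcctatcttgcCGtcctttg
The CpG ratio was 0.858, 0.763 and 0.747 for the LAD genes Cntn5, Gpc5 and Cdh8, and 1.17 and 0.889 for the open genes Tet2 and Klf2.

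MicroRNAs repress mRNAs that pair with their seed, bases 2 to 8. The mES LAD with the most miRNA hairpins, chr7:60770001-62160000, held 13, all of the Mir344 family, and they are shown because they are one family inside 1 domain. The hairpins have 19 mature names with 11 different seeds. The following mature sequences, from RefSeq with the seed in capitals, are the largest group with a common seed, 6 of the names.
mmu-miR-344-5p: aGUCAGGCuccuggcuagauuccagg
mmu-miR-344b-5p: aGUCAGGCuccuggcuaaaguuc
mmu-miR-344c-5p: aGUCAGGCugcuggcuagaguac
mmu-miR-344d-1-5p: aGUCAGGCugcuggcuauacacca
mmu-miR-344d-3-5p: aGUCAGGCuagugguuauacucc
mmu-miR-344g-5p: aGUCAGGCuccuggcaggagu
They differ after the seed, while the 3p arms of the same hairpins carry other seeds, as in these examples.
mmu-miR-344-3p: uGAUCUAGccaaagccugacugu
mmu-miR-344d-3p: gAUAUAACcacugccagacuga

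The mES LADs covered 1045.8 Mb, which is 43.6% of the 2401 Mb between the first and last listed bin of each chromosome. KODs covered 17.5%, open domains 31.7%, and the remaining bins were in no list. Long LADs carried most of this length. The 322 LADs of at least 1 Mb were 16.7% of LADs and held 66.6% of LAD bases, whereas domains of at least 1 Mb held 9.83% of KOD bases and 11.98% of open bases. At the other end, the 579 LADs of at most 50 kb were 30.0% of LADs and held 1.31% of LAD bases, and 229 LADs were a single bin of 10 kb.

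LAD length ran from 10 kb to 8010 kb, with a median of 160 kb and quartiles of 40 kb and 620 kb. The median was 80 kb for KODs and 140 kb for open domains. The states stood farther apart in their long domains: the length N at which domains of length N or more hold 50% of the bases was 1650 kb for LADs (185 LADs), against 340 kb for KODs and 470 kb for open domains. The longest KOD measured 3100 kb and the longest open domain 2910 kb.

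**Figure D1:**
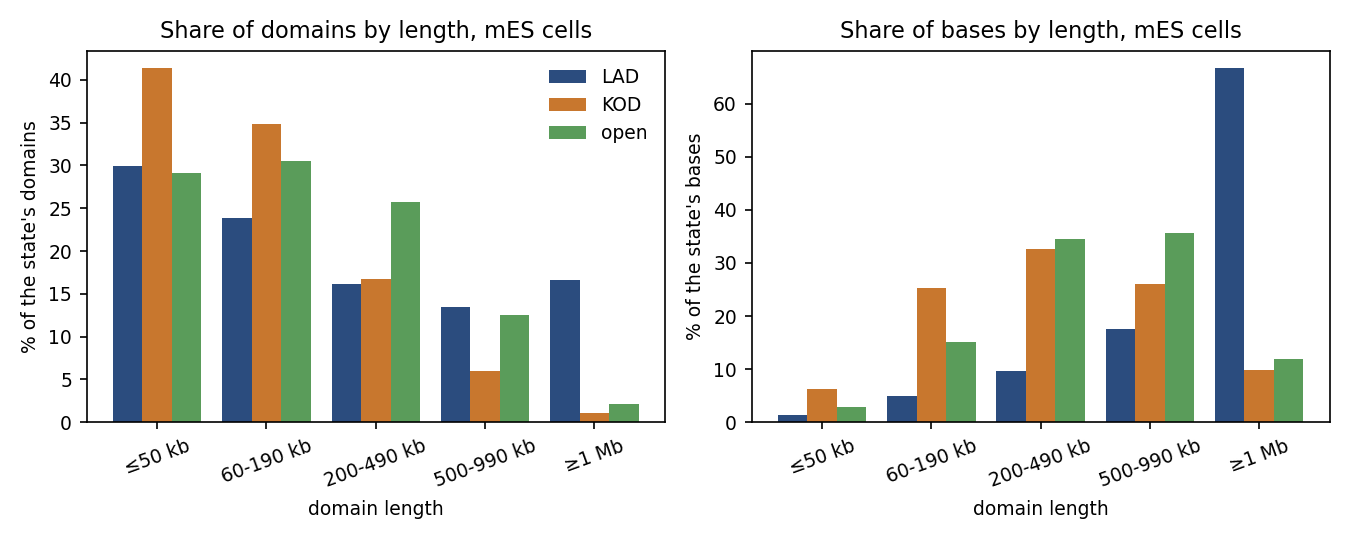
Share of domains (left, % of the state's domains) and of bases (right, % of the state's bases) in 5 length classes for LADs, KODs and open domains of mES cells. Domains of at least 1 Mb are 16.7% of LADs, 1.05% of KODs and 2.15% of open domains, and LADs of at least 1 Mb hold 66.6% of LAD bases.

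The 10 longest LADs measured 5010 to 8010 kb and held 1 to 6 protein-coding genes each, with genes for adhesion molecules of neurons in several of them. The longest, chr8:95990001-104000000, held 2 genes, the cadherins Cdh8 and Cdh11. The LAD at chr4:75280001-80820000 (5540 kb) held 1, Ptprd, a receptor tyrosine phosphatase that organises synapses, and that at chr6:101370001-106740000 (5370 kb) held the contactins Cntn4, Cntn3 and Cntn6. In 3 of the 10 lay a member of the Cntnap5 family of neurexin-like proteins, at chr1:98140001-103780000, chr17:57350001-62630000 and chr1:112440001-117450000. The LAD at chr2:39270001-44470000 held Lrp1b, a large receptor of the LDL receptor family, and that at chr14:105970001-111630000 held Slitrk6 and Slitrk1, membrane proteins that act on neurite growth and synapses.

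Neighbouring mES LADs lay close together. Over 1913 neighbouring pairs the distance had a median of 120 kb and quartiles of 30 kb and 350 kb. It was at most 50 kb in 639 pairs (33.4%) and 1 bin of 10 kb in 248. The length between LADs was nonetheless held by few stretches: the 253 distances of at least 1 Mb held 78.7% of the 1276 Mb between LADs. The longest stretch without a LAD, chr13:39310001-60830000, ran over 21520 kb and held 173 protein-coding genes.

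What lay between neighbouring LADs depended on the distance. In 1013 pairs (53.0%) every bin between the LADs was in no list, with a median distance of 50 kb. In 165 pairs there was KOD and no open bin (median 40 kb), and in 127 of these the LADs were joined by KOD alone over at most 360 kb. Open bins without KOD lay between 392 pairs (median 305 kb), and both states between 343 pairs (median 1900 kb). A stretch that was open over its whole length lay between 2 pairs. Gene density followed the fill: 2.53 protein-coding genes per Mb in stretches with KOD and no open, 8.14 in stretches in no list, 12.5 in stretches with open and no KOD, and 12.9 where both lay between.

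Joined across stretches in no list, the 1932 LADs formed 919 blocks, of which 561 were 1 LAD and 358 held 2 or more. These 358 blocks held 71.0% of LADs. The longest block, chr13:74850001-92160000, ran over 17310 kb with 23 LADs that covered 82.3% of it. The block with the most LADs was of another kind: chr14:41140001-43810000 held 27 LADs in 2670 kb, and they covered 45.7% of it. In the tissues, the bases between LADs that no mES list held were often in no list either, at 53.4% in heart and 35.6% in forebrain. Of the same bases 19.8% were LAD in heart and 44.0% in forebrain, and 25.8% and 18.3% were open. Over the whole map, 11.6% of bases were in no list in heart and 7.71% in forebrain. LAD took 40.1% and 44.0% of the whole map, and open 29.8% and 31.1%. The LAD share of these bases was thus that of the map in forebrain and below it in heart. Mappability of these bins was not tested.

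Flanks were read at the 3864 LAD ends. The next bin was in no list at 3201 ends (82.8%), KOD at 536 (13.9%) and open at 120 (3.11%), and 7 ends were the end of the map. Past the stretch in no list came another LAD at 2026 ends (median stretch 50 kb), open at 1085 ends (median 40 kb) and KOD at 82 ends (median 20 kb). LADs met the other states in different ways. Of 618 borders between a LAD and a KOD, 536 (86.7%) touched with no bin between, whereas of 1205 borders between a LAD and an open domain 120 (9.96%) touched. For comparison, 4331 of 4524 borders between KODs and open domains (95.7%) touched.

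With bins in no list skipped over at most 50 kb, 849 ends (22.0%) met open, 614 (15.9%) KOD, 1066 (27.6%) another LAD and 1324 (34.3%) no listed state. By this reading 211 LADs had KOD on both sides, and they were short (median 40 kb) and held 1.23 protein-coding genes per Mb. The longest of them, chr9:32950001-34370000 (1420 kb), held no protein-coding gene. The 146 LADs with open on both sides had a median of 180 kb and 4.85 genes per Mb, and Cdh8 and Cdh11 lie in the longest of them. The 109 LADs with open on one side and KOD on the other had a median of 110 kb and 2.25 genes per Mb. The longest of these, chr19:48380001-52920000 (4540 kb), held Sorcs1, a sorting receptor of neurons, and Ins1, one of the mouse insulin genes.

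**Figure D2:**
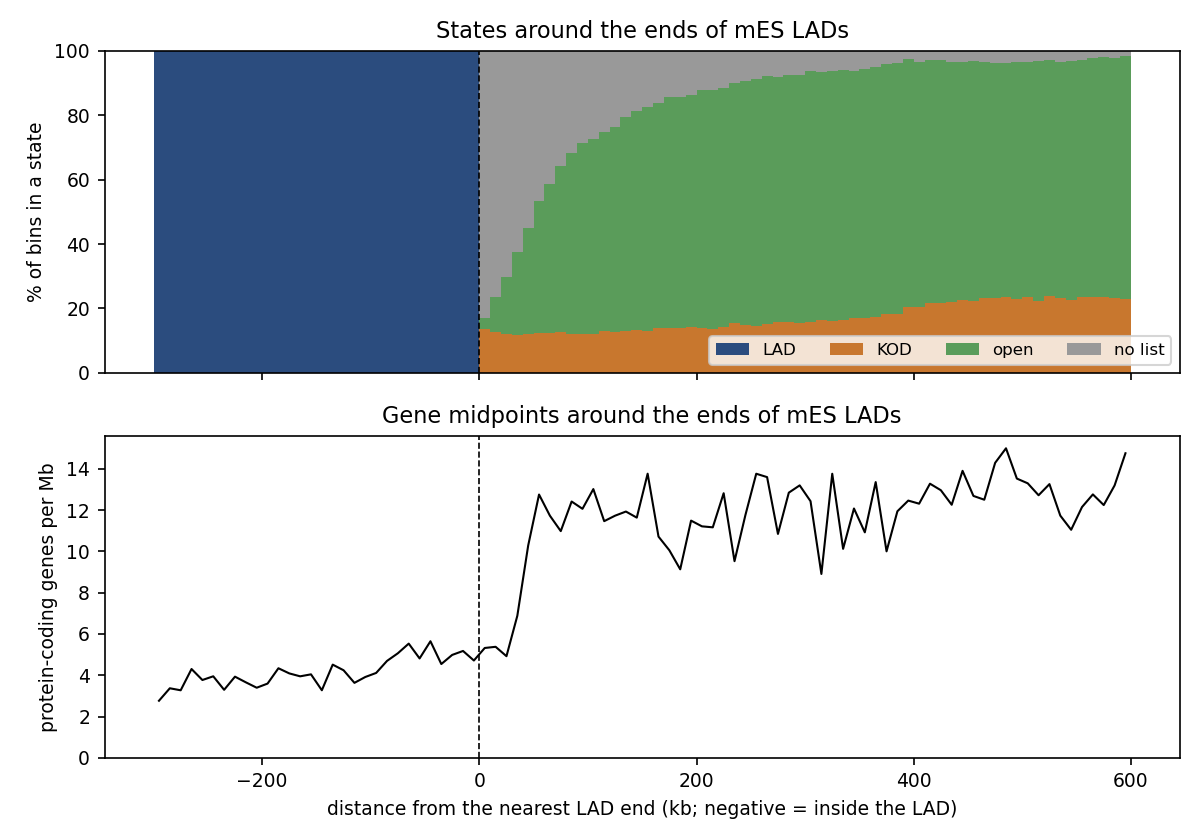
Top, states of bins in mES cells (% of bins) by distance from the nearest LAD end in kb, negative inside the LAD. Bottom, protein-coding gene midpoints per Mb at the same distances. Bins in no list fill 83.0% of the first bin outside and make way for open bins with distance, and gene density passes 12 per Mb at 50 to 100 kb outside.

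Gene content was counted from the RefSeq annotation, which the calls did not use, with each gene placed by its midpoint. Of 20665 protein-coding genes, 3402 lay in mES LADs, which is 16.5% of genes on 43.6% of the map. The density was 3.25 genes per Mb in LADs (SD 2.08 over 19 chromosomes), 6.43 in KODs (SD 2.38), 17.2 in open domains (SD 2.99) and 7.87 in no list (SD 1.82). LADs had the lowest density of the 4 on 17 of 19 chromosomes. The exceptions were chromosome 7, with 9.49 genes per Mb in LADs and 7.40 in KODs, and chromosome 19, with 6.62 in LADs and 6.36 in KODs.

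Many LADs held no gene at all by this count. No protein-coding midpoint lay in 1019 LADs (52.7%, 95% interval 50.5 to 55.0%), and no protein-coding gene overlapped 673 (34.8%). The share without a midpoint was 86.5% among LADs of at most 50 kb and 18.3% among those of at least 1 Mb. Density was lower in the longer classes, with 6.14 genes per Mb in LADs of at most 50 kb, 5.09 in those of 200 to 490 kb and 2.37 in those of at least 1 Mb. The longest LAD without a protein-coding gene, chr18:25800001-30220000, measured 4420 kb, and the next longest, chr1:46970001-50910000, measured 3940 kb.

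Pooled over LADs of all lengths, genes were sparser far from a LAD end than near it. The density was 4.93 per Mb within 20 kb of an end and 1.76 beyond 500 kb from it. Bases that far inside come from long LADs, and LADs of at least 1 Mb held 2.37 genes per Mb in all. Position within a LAD and LAD length were not separated. Outside, it was 5.35 within 20 kb of a LAD, 7.21 at 20 to 50 kb and 12.002 at 50 to 100 kb. Most of the step thus lay outside the LAD end, across the bins in no list, and not at the end itself. Of the LAD genes, 2972 lay wholly inside 1 LAD and 430 (12.6%) reached beyond it.

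Gene length differed as well. The median protein-coding gene measured 6.31 kb in LADs, 22.0 kb in KODs and 18.4 kb in open domains. Among very long genes, however, most were LAD. Of 216 protein-coding genes of at least 500 kb, 140 (64.8%) had their midpoint in a LAD and 59 lay wholly inside 1 LAD. The longest inside 1 LAD were Ptprd (2271 kb), Lrp1b (2058 kb), Nrxn3 (1612 kb), a presynaptic adhesion protein, Robo2 (1555 kb), a receptor for Slit in axon guidance, and Pcdh15 (1554 kb), a protocadherin of the tip links of hair cells. Dpp10, an auxiliary subunit of potassium channels, Gpc5, Naaladl2, Lrrc4c, a ligand of netrin-G, and Cntn5 followed at 1514 to 1271 kb.

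Against the 16.5% of all protein-coding genes that were LAD, receptors of the chemical senses lay mostly in LADs. Of 1104 olfactory receptor genes 935 were LAD, in 42 LADs, of 352 vomeronasal receptor genes 306, in 44 LADs, and of 38 taste receptor genes 29, in 6 LADs. Together these were 1270 genes, or 37.3% of all LAD genes, in 88 LADs. Without them, LADs held 2.04 protein-coding genes per Mb. The LAD with the most genes, chr2:87560001-90180000, held 115, all olfactory receptors, and that at chr2:85120001-87440000 held 101, of which 98 were. The LADs at chr7:102530001-104170000 and chr9:37690001-40110000 held 99 and 95 genes, of which 86 and 93 were olfactory receptors. The fifth, chr16:87790001-89640000, held 61 genes with Grik1, a kainate receptor subunit, as the longest. In all, 61 LADs with 10 or more genes held 48.4% of LAD genes.

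Most genes of neuronal adhesion and synapses in the list used were LAD. Of 35 such genes, 32 were LAD, in 31 different LADs, among them the neurexin Nrxn3, the neuroligin Nlgn1 and the contactins Cntn4, Cntn5 and Cntn6. The list was drawn up with earlier results of these data known. It holds Lrp1b, Nrxn3, Robo2, Lrrc4c and Cntn5, which are over 1 Mb long. Of all protein-coding genes of at least 500 kb, 64.8% were LAD, and gene function and length were not separated. Of 13 type II cadherins, 9 were LAD, as were 5 of 8 non-clustered protocadherins (Pcdh7, Pcdh9, Pcdh17, Pcdh18 and Pcdh20) and 2 of 4 Slitrk genes. The clustered protocadherins, which give neurons their surface identity, had 0 of 57 in LADs and 46 in open domains. Open domains held 63.3% of all protein-coding genes. Among channels, 10 of 16 GABA-A receptor subunits and 23 of 91 potassium channel genes were LAD.

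Families of host defence and liver metabolism lay in LADs to different extents. All 28 alpha defensins, antimicrobial peptides of the gut, were in 1 LAD, and 23 of 42 beta defensins were in 3 LADs. Of 29 lectin-like receptors of natural killer cells 20 lay in 1 LAD. Of the Cyp2, Cyp3 and Cyp4 genes, cytochromes P450 that handle drugs and fatty acids, 44 of 77 were LAD, and of the Ugt genes, which conjugate glucuronic acid, 13 of 22. The Serpin A and B protease inhibitors had 22 of 51 and the Pramel genes 34 of 45. Of the Mup genes, which encode major urinary proteins, 8 of 22 were LAD, and of the Psg and Ceacam genes 12 of 28, of which 5 were LAD in heart and 0 in forebrain. Interleukin, chemokine and interferon genes, at 20 of 141 (14.2%), were near the share of all genes.

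The lists of heart, forebrain and liver genes lay on both sides of the 16.5% of all genes. Of 35 genes in the list for cardiac contraction, not all of them contractile proteins, 4 were LAD (11.4%). These were Actc1 (cardiac actin), Nebl (nebulette of the Z-disc), Slc8a1 (the sodium-calcium exchanger) and Corin (the protease that processes natriuretic peptide). Of 20 genes in the list for cardiac transcription factors, which is not limited to heart-specific genes, 3 were LAD (15%), Mef2c, Isl1 and Prrx1. Of 25 genes in the list for forebrain transcription factors 1 was LAD (4%), Nfia. Of 25 liver and gut genes, 6 were LAD (24%): Alb and Afp (serum albumin and alpha-fetoprotein), Cps1 of the urea cycle, Cyp3a11, Cyp7a1, the rate-limiting enzyme of bile acid synthesis, and Lgr5, a marker of intestinal stem cells. Alb and Afp lay in a LAD of 120 kb. For Cps1, Cyp3a11, Cyp7a1 and Lgr5 the LAD measured 1930, 830, 90 and 20 kb.

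Genes that are active in most cells, and the genes of pluripotency, were outside LADs. Of all protein-coding genes, 63.3% were open and 13.1% KOD. None of 32 pluripotency genes was LAD and 28 were open. None of 22 genes of H3K9 methylation and the lamina, 26 housekeeping genes, 39 proteasome genes or 78 genes of the mitochondrial ribosome was LAD, and of 76 ribosomal protein genes 1 was. Of 67 replication-dependent histone genes 0 were LAD and 64 were open. The same held for families that are mostly silent in stem cells: 0 of 39 Hox genes, 0 of 24 germline genes and 0 of 53 keratins, of which 42 were KOD. Of 388 Zfp genes, mostly zinc finger proteins, 13 were LAD. These shares count genes by position, and clustered families are few loci and not independent genes. No expression was measured.

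Other gene classes ranged widely around the protein-coding share. LADs held 18.8% of lncRNA genes, 42.1% of pseudogenes, 33.4% of snoRNA genes, 36.1% of snRNA genes, 57.6% of V segments and 4.60% of tRNA genes. Of 919 miRNA hairpins with a RefSeq sequence, 90 (9.79%) were LAD, at 0.0861 per Mb in LADs, 0.413 in KODs and 0.793 in open domains. Beside the Mir344 family, LADs held Mir216a, Mir216b, Mir216c and Mir217, known from the pancreas, in chr11:26570001-29080000, the pair Mir199a-2 and Mir214, known from mesenchymal cells, in chr1:162020001-162490000, and Mir29b-2 and Mir29c, known to target collagen mRNAs, in a LAD of 40 kb, chr1:195010001-195050000.

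Promoters of LAD genes were poor in CpG. Over 2784 promoters of LAD genes the CpG ratio had a median of 0.159 (quartiles 0.0712 and 0.326), against 0.725 (0.437 and 0.892) over 10434 promoters of open genes. Over promoters of all protein-coding genes the median was 0.595. The chromosome medians ran from 0.106 to 0.376 for LAD genes and from 0.638 to 0.771 for open genes. These medians did not overlap, though the ratios of single promoters did, and the LAD median was the lower on 18 of 18 chromosomes. Promoters with no CG, such as those of Cntn3, Rgs13 and Spertl above, were 20.2% of LAD promoters and 1.13% of open promoters. They were 4.95% of the promoters of all protein-coding genes and 5.58% of all promoters in the table. Promoters with a ratio of at least 0.6, such as those of Cntn5, Gpc5 and Cdh8, were 11.3% of LAD promoters and 64.2% of open promoters. Among all protein-coding genes they were 49.7%. The median GC content was 41.3% for LAD and 60% for open promoters.

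The order was the same without the receptor families. Without olfactory, vomeronasal and taste receptors the LAD median was 0.218 and 18.4% of LAD promoters reached 0.6, still below the open promoters. Sequences were at hand for 83.6% of LAD genes and 82.1% of open genes on the 18 chromosomes used. For KOD genes the share was 79.0%, under the 80% minimum set for such a check, so no value is given for them. By gene length, the 2351 promoters of LAD genes under 100 kb had a median of 0.130, and 5.49% reached 0.6. Sequences were at hand for 84.6% of these genes. For LAD genes of at least 100 kb the share was 78.3%, also under the minimum. With that limit, their 433 promoters had a median of 0.525, and 42.7% reached 0.6. Among the LAD genes with a sequence, those under 100 kb thus had the lower median. Receptor genes were not left out of this split, so gene length and receptor family were not separated. In open genes the medians were 0.717 under 100 kb and 0.817 at 100 kb or more.

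**Figure D3:**
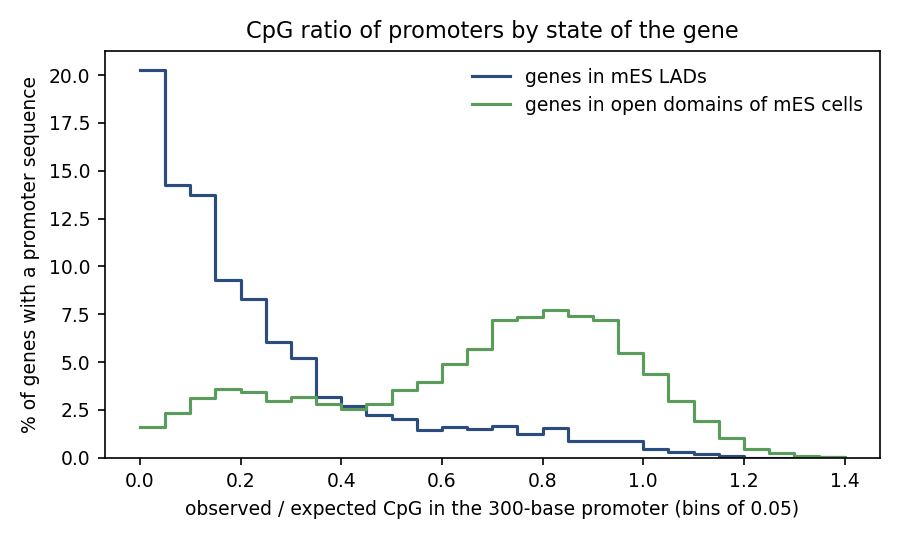
Distribution of the CpG ratio (observed over expected CG) in 300-base promoters of genes in LADs and in open domains of mES cells, as % of the promoters of each group in bins of 0.05. LAD promoters peak near 0, with a median of 0.159, and open promoters at about 0.8, with a median of 0.725.

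Across chromosomes, LADs covered 42.7% of the map on average (SD 6.61, n = 19). The share was lowest on chromosome 11 (29.4%) and chromosome 19 (29.6%) and highest on chromosome 3 (55.6%), and LADs were the largest of the states on 16 of 19 chromosomes. The number of LADs per 10 Mb ran from 6.24 on chromosome 11 to 10.2 on chromosome 14 (mean 8.04, SD 1.20). Chromosome 14 combined the most LADs per length with the shortest median, 50 kb, while on chromosome 15 the median was 260 kb. The longest LAD of a chromosome ranged from 2470 kb on chromosome 9 to 8010 kb on chromosome 8.

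Chromosomes with more genes had a lower LAD share. Over 19 chromosomes the share and the number of protein-coding genes per Mb had a Pearson r of -0.62 and a Spearman rho of -0.47, and r was -0.66 without chromosomes 7 and 11, the farthest in gene density. The share and the map length had r = 0.56, which was 0.32 without chromosomes 1 and 19, so part of that relation rested on these. Both are descriptions of 19 pieces of 1 map. Chromosome 7 stood off the first relation, with the highest gene density (14.3 per Mb) and a LAD share of 43.4%, and 28.9% of its genes were LAD, against 5.72% on chromosome 11.

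**Figure D4:**
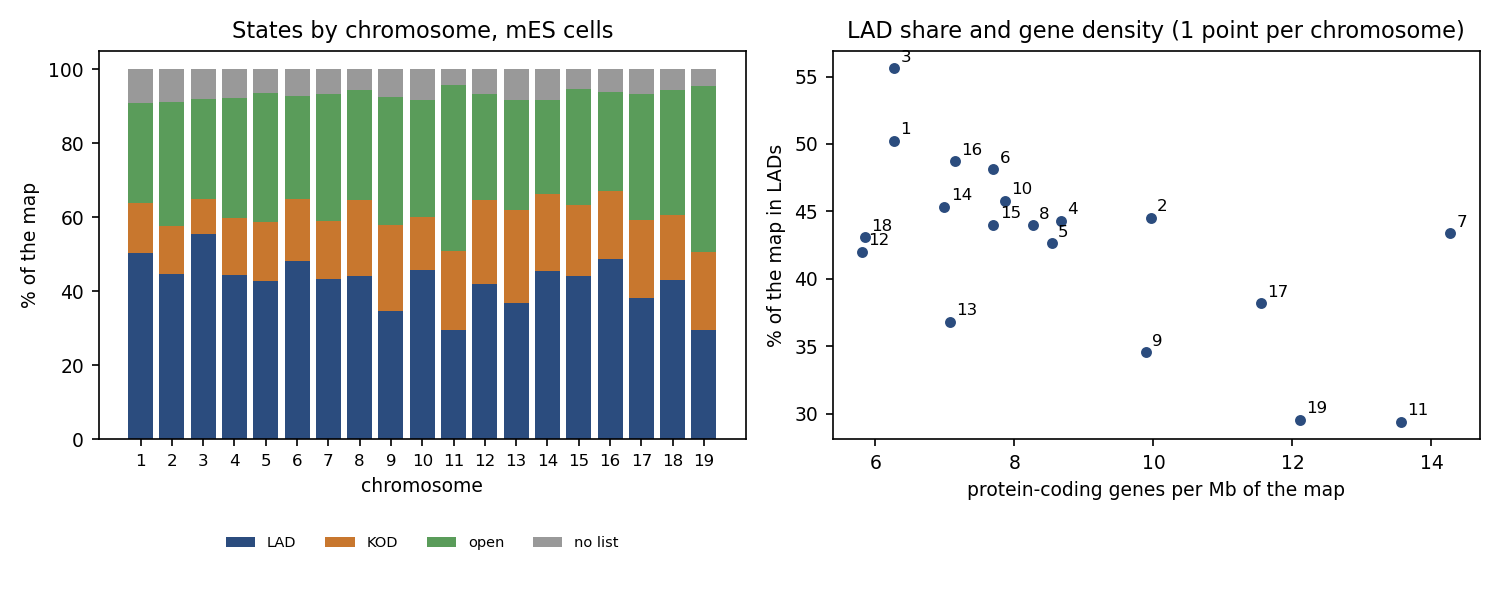
Left, states of each chromosome in mES cells as % of its map. Right, % of the map in LADs against protein-coding genes per Mb, 1 point per chromosome, labelled with its number. Chromosomes 11 and 19 are low in LAD share and high in gene density, and chromosome 7 is high in gene density at a LAD share of 43.4%.

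Along the chromosomes LADs showed no single place. With each map cut into 10 equal parts, the mean LAD share was between 39.0% and 48.9% in the first 9 parts and 28.8% in the last, with SDs of 15.6 to 27.7 over chromosomes. In the first 1 Mb of the map LADs covered 21.2% on average (SD 30.7) and in the last 1 Mb 43.7% (SD 41.1). These differences were not tested.

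The mES LADs were largely LAD in the E11.5 tissues, and the more so the longer they were. Of the bases of mES LADs, 81.5% were LAD in heart and 89.1% in forebrain, whereas of the mES bases that were not LAD 8.18% were LAD in heart and 9.20% in forebrain. At least 50% of the length was LAD in heart for 1306 of 1932 mES LADs (67.6%, 95% interval 65.5 to 69.7%) and in forebrain for 1453 (75.2%, 73.2 to 77.1%). LADs of at most 50 kb were kept by this rule in 51.0% of cases in heart and 62.2% in forebrain, and those of at least 1 Mb in 94.4% and 95.03%. Both tissues kept 1158 LADs with 899 Mb, heart alone 148, forebrain alone 295 and neither 331, which summed to 58.1 Mb.

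**Figure D5:**
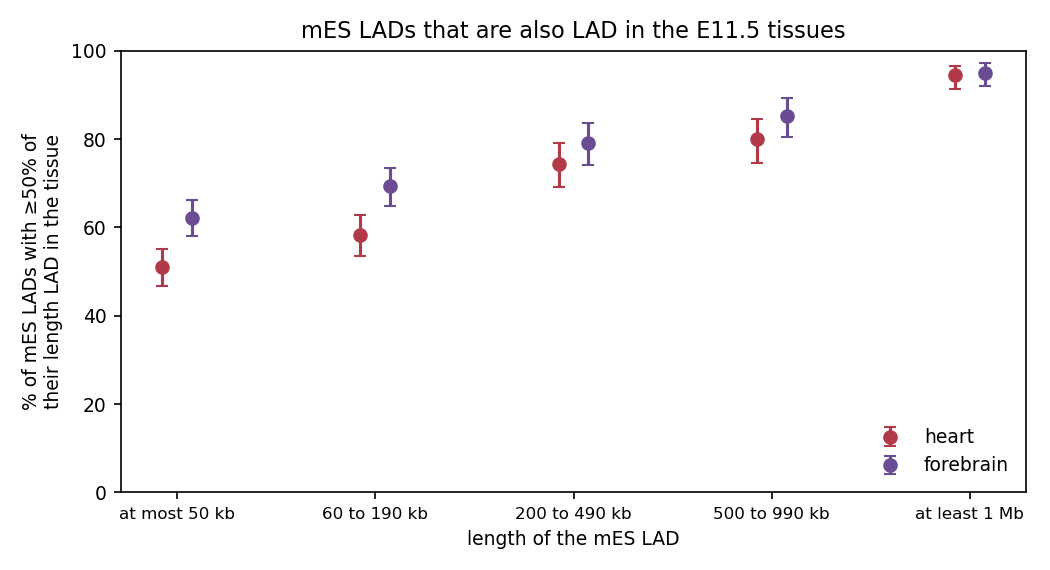
Share of mES LADs with at least 50% of their length LAD in heart or forebrain (%), by length of the mES LAD, with exact 95% intervals over LADs. The share is higher in each longer class in both tissues, from 51.0% to 94.4% in heart and from 62.2% to 95.03% in forebrain.

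Over all lengths, LADs with KOD on both sides had the lowest share kept of the 7 flank classes in each tissue. Of the 211 LADs with KOD on both sides, 50.2% were kept in heart and 45.0% in forebrain, and 32.7% and 44.6% of their bases were KOD there. Of the 146 LADs with open on both sides, 71.9% were kept in heart and 79.5% in forebrain. The classes differ in length, so LADs of like length were compared. Among LADs of 60 to 190 kb, 33 of 67 with KOD on both sides were kept in heart and 30 of 67 in forebrain, whereas 26 of 40 with open on both sides were kept in heart and 34 of 40 in forebrain. Among LADs of at most 50 kb, 58 of 118 with KOD on both sides were kept in heart, against 19 of 35 with open on both sides. In forebrain the counts were 53 of 118 with KOD and 23 of 35 with open on both sides. In heart, short LADs with another LAD on both sides were close to those between KODs. Of those of at most 50 kb, 58 of 121 were kept (47.9%, against 49.2% with KOD), so the order over all lengths did not hold there. At 60 to 190 kb 16 of 31 were kept (51.6%, against 49.3% with KOD). In forebrain, LADs with another LAD on both sides were kept in 80 of 121 and 24 of 31 cases in these classes. At 200 to 490 kb in heart, 12 of 20 with KOD, 16 of 20 with LAD and 22 of 26 with open on both sides were kept. These differences were not tested.

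Of 3402 LAD genes, 2398 (70.5%) were also LAD in heart and 2721 (79.98%) in forebrain. The 4 LAD genes of the cardiac contraction list differed between the tissues. In heart Actc1 and Slc8a1 were open, Nebl in no list and Corin KOD, while in forebrain all 4 were LAD. Isl1 was open in heart and LAD in forebrain, and Alb and Afp were likewise. Mef2c was open in heart and in no list in forebrain, and Nfia was open in both. Of the 32 neuronal adhesion genes 25 were LAD in heart and 25 in forebrain; Nlgn1, for one, was LAD in heart and open in forebrain. Of 935 olfactory receptor genes 879 were LAD in heart and 888 in forebrain, whereas of 306 vomeronasal receptor genes it was 161 and 164. The 28 alpha defensins and the 34 Pramel genes were mostly in other states in the tissues, with 0 and 3 LAD in heart and 2 and 2 in forebrain.

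The LADs that the tissues did not keep were mostly short, and many of their bases were on chromosome 7, which held 61.7 of the 1045.8 Mb of mES LADs. There were 244 LADs (25.8 Mb, median 35 kb) with less than 10% of their length LAD in each tissue, and 33 of them with 9.59 Mb were on chromosome 7. The longest, chr7:20350001-21600000, held 34 genes, of which 29 were vomeronasal receptors, and was open over its whole length in both tissues. The next, chr7:22940001-24030000, held 26 genes with 21 vomeronasal receptors, and was 34.9% open and 57.8% in no list in heart, and 80.7% open in forebrain. The third, chr18:55350001-56320000, held no protein-coding gene and was KOD over its whole length in both tissues. Chromosome 7 kept the lowest share of its LAD bases, 64.2% in heart and 56.0% in forebrain, against means over chromosomes of 81.2% (SD 6.07) and 88.2% (SD 9.94). Some vomeronasal receptor genes are close copies of each other, which reads cannot always tell apart, and this was not tested. Each tissue has 1 pooled list, so differences between tissues have no replicate check.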

How the data were processed

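H3K9me2, LaminB and IgG were profiled by CUT&RUN in mES cells and in E11.5 heart and forebrain, 33 libraries in all. The submitters' processing notes name the mm10 genome and Bowtie2 2.5.0, cutadapt 4.2, deepTools, Picard and Trim Galore, with no settings. The values used are the start and end positions in the 9 domain lists deposited by the authors, 1 per state and source, with replicates pooled and no score. The rule for calling domains was not given in the sources used here, and signal tracks were not analysed here.

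Lists were painted in bins of 10 kb with pandas 2.3.3, numpy 2.4.6 and scipy 1.17.1 under Python 3.11.15, and plotted with matplotlib 3.10.9. Scripts were tested on simulated domains (13 of 13 checks passed). Genes, promoters and miRNAs came from RefSeq tables of GRCm38.p6. A set with a promoter for under 80% of its genes was not used, apart from LAD genes of at least 100 kb, whose values are given with that limit. Promoters were compared on 18 chromosomes, without chromosome 18, for which the table had none. The CpG ratio is the count of CG times the length over the product of the C and G counts. A LAD counts as kept with at least 50% of its length LAD in the tissue.

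The regions, gene lists and rules were chosen with earlier results of these data known. Named were the 10 longest LADs, the 5 with most genes, the longest without a gene, the longest by flank and the longest lost LADs, the 10 longest genes wholly inside, and up to 6 LAD members of each gene list, of which 1 is not reported here. Alternatives were to join, trim or leave out short domains, to skip bins in no list, and to place genes or count kept LADs by other rules. No test between groups of samples was made.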

Additional observations from a re-analysis of the deposited data

How the results depend on the processing

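No paired analysis was possible because each list pools its replicates, so leaving out 1 replicate could not be run either. Of 38 alternatives, 16 stayed within the spread used (1 SD over chromosomes, an exact interval, or 1.5 times for the number), and the 22 others did not. Those within include the share of the map, the share of bases in LADs of at least 1 Mb, and the promoter CpG ratio, under each alternative run for them. This is a weak check, because the SD of single chromosomes is wide beside what such alternatives can change. For the share of the map it was 6.61, and the alternatives gave 42.5 to 46.9%. The number of LADs was 1182 without domains under 100 kb. The median length was 475 kb without those, 260 kb with LADs at most 20 kb apart joined and 300 kb with 20 kb trimmed from each end, and the median distance was 230, 180 and 220 kb under the same alternatives. LAD ends met open in 22.0% within 50 kb, and KOD in 15.9% within 50 kb and 9.31% without short LADs. Counting all annotated genes gave 10.4 genes per Mb. LADs without a gene were 34.8% by overlap, 34.3% without short domains and 27.3% with all genes. The share kept in heart was 77.3% by any shared bin, 54.2% at 80% of the length, 78.2% without short LADs and 77.4% over bins listed in both maps, and in forebrain 80.6%, 69.5%, 83.2% and 81.2%. Short domains and bins in no list enter these alternatives by construction. Depth behind the lists is unknown.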

Other observations

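The strand of genes near LAD ends was examined after the density profile had been seen. Genes were placed by their transcription start at the distance from the nearest LAD end, on the 18 chromosomes with promoter sequences. Among starts 20 to 50 kb outside a LAD, 353 of 527 (67.0%, exact 95% interval 62.8 to 71.0%) belonged to genes transcribed away from the LAD, and the share was above 50% on 18 of 18 chromosomes. Starts at other distances outside LADs gave 49.6 to 52.5%. Placed by their midpoint instead, genes 20 to 50 kb outside were transcribed away in 204 of 405 cases (50.4%, 45.4 to 55.3%), above 50% on 5 chromosomes and below it on 9. At 50 to 100 kb outside, genes placed by midpoint were transcribed away in 372 of 814 cases (45.7%, 42.2 to 49.2%), above 50% on 3 chromosomes and below it on 13, while starts at that distance gave 50.4%. The share at a given distance thus depended on how genes were placed, and its relation to how the authors called the domains was not tested.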
